A study of Mus musculus with 10 samples.

Results

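Liver transcripts of 30 genes of blood clotting and clot dissolution were compared between obese mice with and without ethanol. The genes were chosen by name as coagulation and fibrinolysis factors, and all 30 were among the 15086 genes tested. They comprise 16 procoagulant genes, 8 anticoagulant genes and 6 genes of fibrinolysis, the last including its inhibitors. The samples were livers of 10 male C57BL/6J +/+ mice, 5 in a group called HFD_control here and 5 in a group called HFD_ethanol. Mice were 7 weeks old at purchase, had 1 week to acclimatize, and then all ate a high-fat diet (HFD, 60% by its label, 5.5 kcal per g) for 4 months. The ethanol group took ethanol in its drinking water during the last 3 of those months, with a daily intake of 5 g per kg body weight for week 1 and of 10 g per kg afterwards, and the control group had none. Each group held 10 mice, of which 5 were picked at random for arrays, so no lean group and no group on a standard diet enters the comparison. RNA came from whole liver pieces, in which fewer cells of a type and less RNA per cell cannot be told apart.

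Clotting is a cascade of proteases that circulate as inactive precursors, each cleaved by the one before it. Tissue factor with factor VII starts it, factor X with its cofactor factor V makes thrombin from prothrombin, and thrombin turns fibrinogen into fibrin. Antithrombin, protein C with its cofactor protein S, and tissue factor pathway inhibitor act as brakes, and plasmin, made from plasminogen by tissue and urokinase plasminogen activators, dissolves the clot. Hepatocytes make most of these proteins, while endothelial cells are the main source of von Willebrand factor, thrombomodulin and factor VIII.

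Each liver was read on an Agilent 1-colour array. Values below are log2 signals scaled so that the 75th percentile of each array is 0, differences are ethanol minus control, errors of means are SD over 5 mice, and errors of differences are standard errors (SE) from limma. The 10 arrays had 55.5 to 59.1% of spots well above background and a 75th percentile of 277 to 383 signal units, with 0 saturated spots. The arrays lay on 3 slides: control replicates 4 and 5 and ethanol replicate 4 were on slide 1, control replicates 1 and 3 on slide 2, and the rest, control replicate 2 and ethanol replicates 1, 2, 3 and 5, on slide 3. Ethanol replicates 2 and 3 were the only arrays in slide column 1. Values within slide 1 therefore rest on ethanol replicate 4 as the lone ethanol mouse. Those within slide 3 rest on control replicate 2 as the lone control. All 10 hepatocyte markers were tested, 3 higher and 7 lower with ethanol, and their summed signal, in units of the 75th percentile, was 4770 to 6283 in controls and 5137 to 5579 with ethanol. Albumin (Alb) was at 10.19 ± 0.18 in controls and 10.25 ± 0.10 with ethanol. The SD was larger with ethanol in 5 of 10 hepatocyte markers (50%, against 59.3% of all genes). Among these 5, Cps1, an enzyme of the urea cycle, ran from 1.98 to 3.04 in controls and from 0.91 to 3.69 with ethanol. It was highest in ethanol replicates 2 and 3 and lowest in replicates 1 and 5. Ass1, of the same cycle, ran from 7.10 to 7.76 in controls and from 6.52 to 7.89 with ethanol, and was also lowest in ethanol replicates 1 and 5. Of the 30 members, 29 were well above background on all 10 arrays, and Plat was not.

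No clotting gene passed an adjusted p of 0.05 over all genes, by limma with Benjamini-Hochberg adjustment (0 of 30, where 0.0199% of all genes passed). At an unadjusted p under 0.05 there were 6 of 30, against 13.3% of all genes. Of these, 2 were higher with ethanol, F7 and Serpinc1 (8.12% of all genes were called in that direction), and 4 were lower, Pros1, Tfpi, Plat and Plau (5.22% of all genes). Plat was kept only through the controls and was well above background on 1 ethanol array, so its call rests on values near the floor. Among the 29 members well above background on all 10 arrays there were 5, against 13% of the genes kept by that rule. Pros1, the gene of protein S, was the only member whose groups did not overlap, lower with ethanol, while 3.05% of all genes were without overlap and 1.07% were so in the lower direction. Without ethanol replicate 1 there were 2 members without overlap (Pros1 and Plau, against 4.53% of all genes), and without ethanol replicate 5 there were also 2 (Pros1 and Plat, against 4.63%). The difference was above 0 for 17 of 30 members (56.7%), close to the 56.8% of all genes. The median difference over the members was 0.014, and over all genes it was 0.029. By role, the median was 0.011 over the procoagulant genes (9 higher, 7 lower), 0.0028 over the anticoagulant genes (4 higher, 4 lower) and 0.039 over the fibrinolytic genes (4 higher, 2 lower). The count of higher members rested on the scaling and on 2 mice: it was 7 under quantile normalization (23.3%, where 46.2% of all genes were higher), 10 without ethanol replicate 2 (55% of all genes), 11 without ethanol replicate 3 (58.1% of all genes), and 7 without both (56.3% of all genes).

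**Figure D1:**
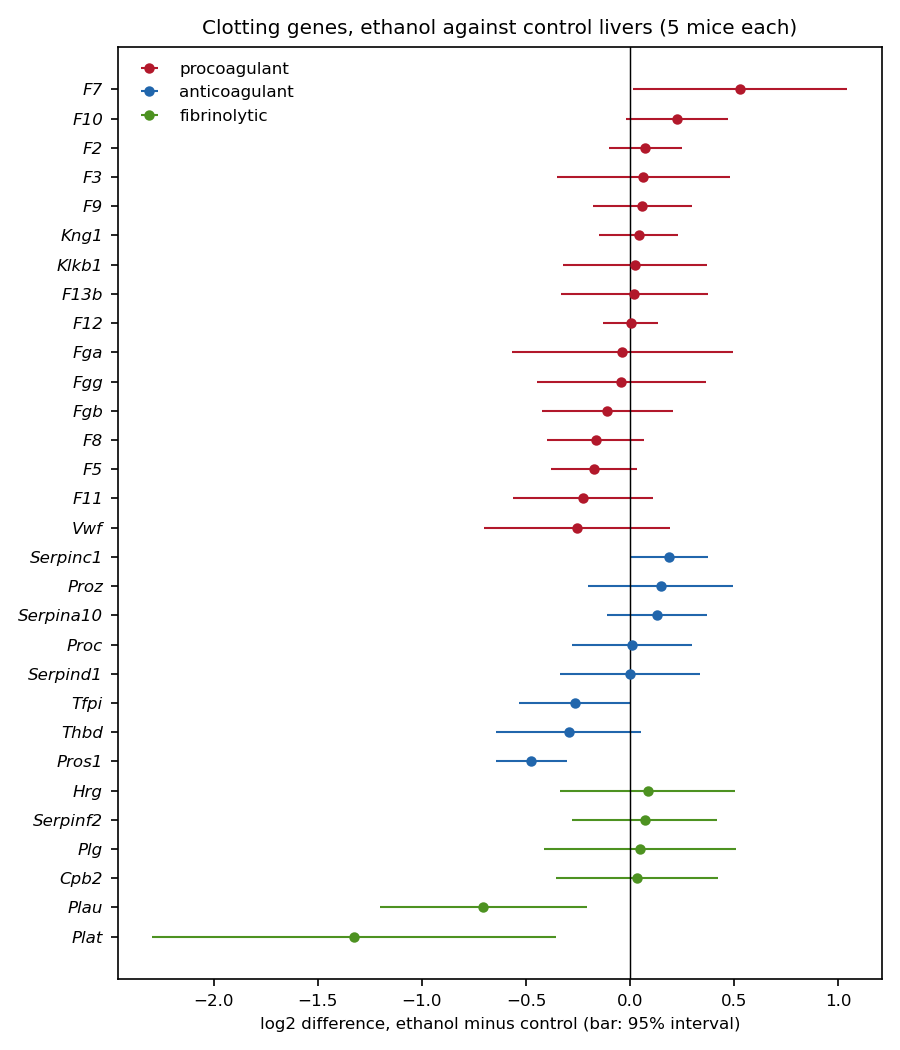
Log2 difference in liver signal, ethanol minus control, for each of the 30 clotting genes, with points for limma's estimate, bars for its 95% interval and colours for procoagulant, anticoagulant and fibrinolytic genes (5 mice per group). Most bars cross 0, and the points farthest from 0 are those of Plat (-1.33), Plau (-0.70), F7 (0.53) and Pros1 (-0.47), where Plat rests on values near the floor.

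Initiation of clotting was represented by F3, the gene of tissue factor, and F7, the gene of the protease that tissue factor activates. F7 was at 1.25, 1.54, 2.05, 1.56 and 1.71 in control replicates 1 to 5 and at 1.62, 2.67, 2.59, 2.20 and 1.67 in ethanol replicates 1 to 5. Ethanol replicates 2, 3 and 4 lay above every control, while replicates 1 and 5 lay inside the control range. The difference was 0.53 ± 0.23 (1.44-fold), with a 95% interval of 0.014 to 1.04 and an adjusted p of 0.366. It was 0.59 with slide as a fixed block, 0.57 within slide 1 and 0.60 within slide 3, and 0.21 without ethanol replicates 2 and 3. F3 was at -0.43, -0.51, -0.36, -0.44 and -0.19 in controls and at -0.64, -0.20, -0.77, -0.36 and 0.36 with ethanol. The ethanol mice spread to both sides of the controls, with replicates 1 and 3 below all of them and replicate 5 above. The difference in F3 was 0.063 ± 0.19.

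The genes of the thrombin-forming steps had intervals that crossed 0. F2, the gene of prothrombin, was at 8.35, 8.59, 8.53, 8.48 and 8.44 in controls and at 8.42, 8.66, 8.57, 8.66 and 8.44 with ethanol. The groups overlapped, and the difference of 0.073 ± 0.079 had an interval of -0.10 to 0.25. F10, whose product forms thrombin, was at 6.41 ± 0.13 in controls and 6.63 ± 0.21 with ethanol, a difference of 0.22 ± 0.11 (adjusted p 0.397). As in F7, the 3 ethanol mice above every control in F10 were replicates 2, 3 and 4. F5, the cofactor of that step, was at 6.02 ± 0.18 and 5.85 ± 0.076, a difference of -0.17 ± 0.092 (adjusted p 0.426), and 3 of 5 ethanol mice lay below every control. In RefSeq's gene order F7, F10 and Proz are consecutive protein-coding genes on chromosome 8. Their differences were 0.53, 0.22 and 0.15, and in each of them ethanol replicates 2 and 3 were the highest 2 of the 10 mice.

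The amplification and contact steps gave small differences with intervals across 0. F9, whose product activates factor X, differed by 0.058 ± 0.11, and F8, its cofactor, by -0.17 ± 0.10. F11, the gene of the protease upstream of factor IX, was at 2.32 ± 0.078 in controls and 2.09 ± 0.35 with ethanol, a difference of -0.23 ± 0.15. In F11, ethanol replicates 1, 4 and 5 lay below every control and replicate 3 lay above. Without ethanol replicates 2 and 3 the difference in F11 was -0.47, and its groups did not overlap, as in 8.09% of all genes. With slide column as a covariate it was -0.45. The contact genes are F12 (factor XII), Klkb1 (plasma prekallikrein) and Kng1 (high molecular weight kininogen), with differences of 0.0031 ± 0.059, 0.022 ± 0.16 and 0.040 ± 0.085. The interval for F12, -0.13 to 0.13, was the narrowest among the 30 members. Klkb1 lies beside F11 on chromosome 8, and Kng1 had 3 probes whose differences were 0.040, 0.0051 and 0.089. Kng1 has a close relative next to it, Kng2, so its probes may read both genes. In Kng2 the difference was -0.0076 ± 0.095.

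Vwf encodes von Willebrand factor, which tethers platelets and carries factor VIII. It was at 0.58, 0.23, 0.37, 0.86 and 0.85 in controls and at 0.85, 0.17, -0.24, 0.31 and 0.52 with ethanol. Ethanol replicates 2 and 3 were below every control, and the other 3 ethanol mice were within the control range. The difference was -0.26 ± 0.20, with an interval of -0.70 to 0.19, and it was -0.019 without ethanol replicates 2 and 3. Within slide 1 it was -0.55 and within slide 3 it was 0.091. Of 13 endothelial marker genes, 4 were higher and 9 lower with ethanol (median difference -0.11), and their summed signal was 39.0 to 49.7 in controls and 41.8 to 46.1 with ethanol. Pecam1 and Cdh5, which define endothelial cells, differed by 0.32 ± 0.12 and -0.030 ± 0.12. Of 8 platelet and megakaryocyte markers 5 were tested and all 5 were lower (median -0.61), with summed signals of 0.893 to 1.90 in controls and 0.643 to 1.37 with ethanol. The part of either cell type in the values of Vwf was not tested.

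Fibrinogen is built from 3 chains, encoded by Fga, Fgb and Fgg, which stand side by side on chromosome 3 in the order Fgg, Fga, Fgb and are made together in the hepatocyte. The 250 bases before the RefSeq start of Fgg and of Fgb (build GRCm38.p6) are shown because these 2 promoters share a motif. Transcripts of the chains went up and down together from mouse to mouse. Whether the motif has a part in this was not tested. The stretches are chr3:83007474-83007723 (plus strand) for Fgg and chr3:83049864-83050113 (minus strand) for Fgb. Each is written 5′ to 3′ on the gene's strand, and capitals mark CTGGGAA, the core of an interleukin 6 response element.
Fgg: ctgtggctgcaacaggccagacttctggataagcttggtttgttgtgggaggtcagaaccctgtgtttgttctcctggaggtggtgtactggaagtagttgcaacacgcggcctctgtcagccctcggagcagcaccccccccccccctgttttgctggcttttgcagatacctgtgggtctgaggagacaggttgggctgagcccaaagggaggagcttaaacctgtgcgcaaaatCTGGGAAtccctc
Fgb: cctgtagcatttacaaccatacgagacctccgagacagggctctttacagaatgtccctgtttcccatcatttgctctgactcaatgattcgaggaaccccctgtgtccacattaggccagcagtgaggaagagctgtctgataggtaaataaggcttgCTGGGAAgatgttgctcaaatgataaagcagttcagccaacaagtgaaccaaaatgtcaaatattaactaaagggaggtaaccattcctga
The CTGGGAA core begins 13 bases before the start in Fgg and 91 bases before it in Fgb. Searched on both strands of the same window, CTGGGAA occurs in 9.1% of 32851 mouse promoters. Among the 22 members with a promoter in the table, 4 held it (F9, Fgb, Fgg and Tfpi), and the 250 bases of Fga did not. CAAAGTC, an HNF4 core found in 3.84% of promoters, occurred in Tfpi. TATAAA, the letters of a TATA box, occurred in 12.4% of promoters and in Klkb1 and Tfpi. Both matches of TATAAA were on the strand opposite to the gene, 132 (Klkb1) and 127 (Tfpi) bases before the start. They were not shown to be TATA boxes. These are matches of letters, and of the 3 motifs only CTGGGAA occurs in the stretches printed. Motifs of other factors, HNF1 among them, are not given, so the stretches may hold sites that are not in capitals.

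Fga was at 4.70, 4.37, 4.52, 5.08 and 4.87 in controls and at 4.15, 5.26, 5.19, 4.52 and 4.24 with ethanol. Fgb was at 8.55, 8.61, 8.56, 8.77 and 8.66 in controls and at 8.20, 8.82, 8.84, 8.55 and 8.19 with ethanol. Fgg was at 8.82, 8.76, 8.96, 9.17 and 8.95 in controls and at 8.43, 9.22, 9.39, 8.90 and 8.52 with ethanol. In all 3 chains ethanol replicates 2 and 3 were above every control and ethanol replicates 1 and 5 were below every control, so the ethanol mice bracketed the control range. The differences were -0.037 ± 0.24 for Fga, -0.11 ± 0.14 for Fgb and -0.042 ± 0.18 for Fgg, none past the threshold (adjusted p 0.955, 0.749 and 0.937). Without ethanol replicates 2 and 3 they were -0.41, -0.32 and -0.32, with adjusted p of 0.441, 0.361 and 0.454. Over all alternatives the adjusted p of Fgb ran from 0.361 to 0.9998. Within slide 3 the difference was 0.34 for Fga, -0.095 for Fgb and 0.13 for Fgg, and within slide 1 it was -0.46, -0.17 and -0.17.

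Deviations from the group means of the 10 mice were correlated between the chains. Pearson's r was 0.924 for Fga with Fgb, 0.934 for Fga with Fgg and 0.966 for Fgb with Fgg, with Spearman's rho of 0.891, 0.903 and 0.891. By a 2-sided permutation test over the mice, p was 0.00022, 8.0e-05 and 0.00010 for r and 0.0011, 0.00060 and 0.0012 for rho. Adjusted over the 3 pairs, the permutation p was 0.00022, 0.00015 and 0.00015 for r and 0.0012 for each rho. Among the 5 controls alone r was 0.766, 0.818 and 0.800, and among the 5 ethanol mice alone 0.973, 0.967 and 0.988. The SD was 1.87 (Fga), 3.48 (Fgb) and 2.65 (Fgg) times as large with ethanol, so the ethanol mice weigh more in the pooled r. Leaving out the 2 mice farthest from the median of the first gene of each pair gave r of 0.838, 0.890 and 0.934, and removing slide means gave 0.923, 0.933 and 0.974. The 3 chains of a mouse were read on the same array with the same scaling, and the 2 high ethanol mice share a slide column. No correlation with genes outside fibrinogen is given. In 19 of 30 members, these chains included, ethanol replicates 2 and 3 lay above replicates 1 and 5. A second probe of Fga differed by -0.081. F13b, a subunit of the factor that crosslinks fibrin, was at 3.42 ± 0.25 in controls and 3.44 ± 0.29 with ethanol, and again had ethanol replicates 2 and 3 above every control.

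**Figure D2:**
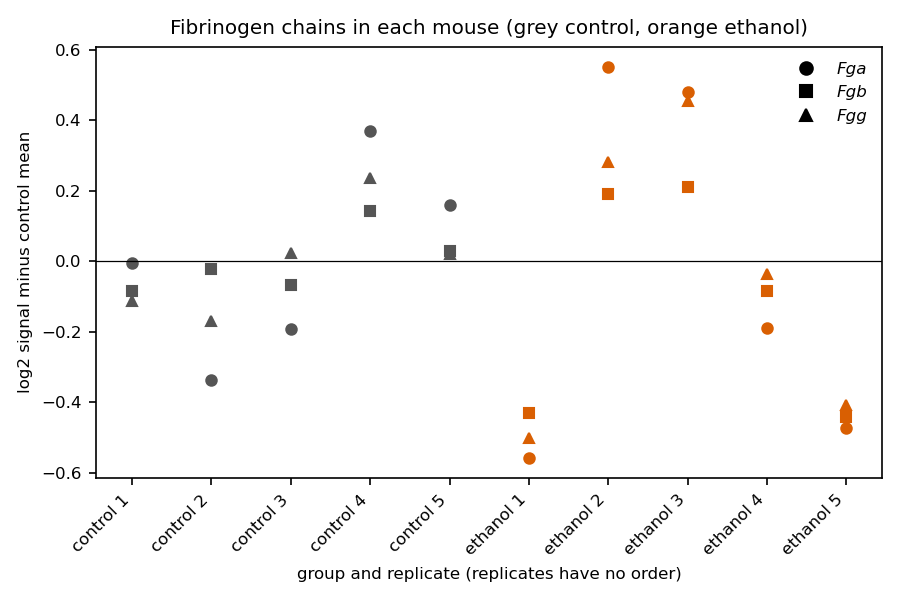
Log2 signal of the 3 fibrinogen chains in each of the 10 mice, minus each gene's control mean (vertical axis, log2 units), with grey for control and orange for ethanol mice and a marker shape for each gene. For each chain the highest mice are ethanol replicates 2 and 3 and the lowest are ethanol replicates 1 and 5.

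Among the anticoagulant genes, Pros1 had the smallest p of the 30 members. Its product, protein S, is a vitamin K-dependent cofactor of activated protein C and of tissue factor pathway inhibitor. Pros1 was at 4.10, 3.98, 3.95, 4.12 and 4.03 in control replicates 1 to 5 and at 3.63, 3.66, 3.36, 3.60 and 3.56 in ethanol replicates 1 to 5. Every ethanol mouse was below every control, with the lowest control at 3.95 and the highest ethanol mouse at 3.66. The difference was -0.47 ± 0.077 (1.39-fold lower), with an interval of -0.64 to -0.30 and an adjusted p of 0.104. A second probe of Pros1 differed by -0.27 ± 0.11, with overlap between the groups. The difference was below 0 in all 28 alternatives, between -0.54 and -0.37, with adjusted p from 0.0415 to 0.9998. It passed the threshold under moderated variances with trend and robust settings (adjusted p 0.0492), under array weights (0.0415) and with slide as a random block (0.0430). The correlation within slides in the random block was negative, at -0.13. Under array weights 19.6% of all genes had an unadjusted limma p under 0.05, and with the random block 20.1%, against 13.3% as reported. With slide as a fixed block the difference was -0.45 (adjusted p 0.892), within slide 1 it was -0.48 (0.311) and within slide 3 it was -0.43 (0.9998). Without ethanol replicates 2 and 3 it was -0.44 (0.145).

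The other genes of these brakes gave smaller differences. Proc, the gene of protein C, was at 6.65 ± 0.16 in controls and 6.66 ± 0.26 with ethanol, a difference of 0.0078 ± 0.13. Tfpi, the gene of tissue factor pathway inhibitor, was at -1.04, -1.23, -1.04, -1.08 and -0.79 in controls and at -1.20, -1.60, -1.39, -1.01 and -1.30 with ethanol. Ethanol replicates 2, 3 and 5 were below every control, and replicates 1 and 4 were not. The difference was -0.27 ± 0.12 (1.20-fold lower, adjusted p 0.374). It was -0.11 with slide as a fixed block, -0.078 within slide 1, -0.14 within slide 3, and -0.14 without ethanol replicates 2 and 3. The 2 other probes of Tfpi differed by -0.38 ± 0.15 and -0.086 ± 0.13. Thbd encodes thrombomodulin, the endothelial receptor that turns thrombin toward protein C, and it was at -0.74 ± 0.26 in controls and -1.03 ± 0.27 with ethanol. That difference was -0.30 ± 0.16 (adjusted p 0.427), and within slide 3 it was 0.011.

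Serpinc1, the gene of antithrombin, which inhibits thrombin and factor Xa, was at 8.70, 9.01, 8.88, 8.76 and 8.72 in controls and at 8.85, 9.04, 9.05, 9.11 and 8.98 with ethanol. Ethanol replicates 2, 3 and 4 were above every control, and the other 2 lay among the upper controls. The difference was 0.19 ± 0.083 (1.14-fold, adjusted p 0.37). It was 0.15 with slide as a fixed block and 0.37 within slide 1, but -0.031 within slide 3. There the lone control was replicate 2, the highest of the controls at 9.01. Serpind1, the gene of heparin cofactor II, differed by -0.0021 ± 0.15. Proz, whose protein Z is the cofactor of the inhibitor encoded by Serpina10, differed by 0.15 ± 0.16, and Serpina10 by 0.13 ± 0.11. Their intervals were -0.20 to 0.49 for Proz and -0.11 to 0.37 for Serpina10.

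**Figure D3:**
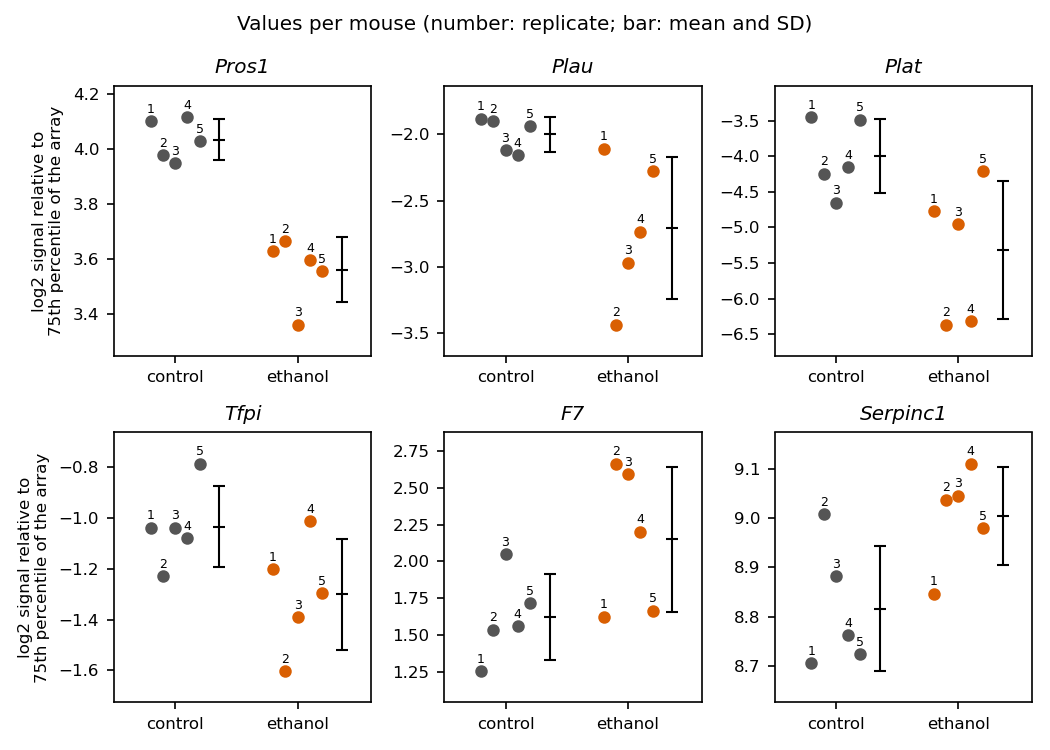
Log2 signal (0 is the 75th percentile of the array) in each mouse for the 6 genes with an unadjusted p under 0.05, with grey for controls, orange for ethanol, numbers for replicates, and bars for the mean and SD of 5 mice. In Pros1 the groups are apart (lowest control 3.95, highest ethanol mouse 3.66), and in the other 5 genes they overlap.

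Of the plasminogen activator genes in the fibrinolytic group, only Plau had a probe well above background on all 10 arrays. Plau, the gene of urokinase, was at -1.88, -1.90, -2.12, -2.16 and -1.94 in controls and at -2.11, -3.44, -2.97, -2.73 and -2.28 with ethanol. Ethanol replicates 2 to 5 were below every control, and replicate 1 was inside the control range. The difference was -0.70 ± 0.22 (1.63-fold lower, adjusted p 0.272), and the other probe of Plau was dim on all 10 arrays. It was -0.75 with slide as a fixed block, -0.69 within slide 1, -0.79 within slide 3, and -0.37 without ethanol replicates 2 and 3. Under normexp background correction it was -0.36.

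Plat, the gene of tissue plasminogen activator, was well above background on 4 control arrays and 1 ethanol array. It was at -3.45, -4.25, -4.65, -4.15 and -3.49 in controls and at -4.77, -6.37, -4.95, -6.32 and -4.21 with ethanol, where -6.37 is the floor of the scale. Ethanol replicate 5 was within the control range and the other 4 ethanol mice were below it. The probe was kept only through the controls, and the values of 4 ethanol arrays, not well above background, are bounds. The fitted difference of -1.33 is therefore no measured size, and it did not pass the threshold. It moved from -2.50 within slide 1 to -0.31 under normexp background correction, and it was -0.83 within slide 3.

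Plg, the gene of plasminogen, was at 2.63, 2.62, 2.85, 2.86 and 2.91 in controls and at 2.35, 3.40, 3.19, 2.86 and 2.30 with ethanol. As in fibrinogen, ethanol replicates 2 and 3 lay above all controls and replicates 1 and 5 lay below. The difference was 0.046 ± 0.21 (adjusted p 0.939). The inhibitors Serpinf2 (alpha2-antiplasmin) and Cpb2 (carboxypeptidase B2, which trims plasmin's docking sites from fibrin) differed by 0.070 ± 0.16 and 0.032 ± 0.18. Hrg, the gene of a plasminogen-binding glycoprotein, differed by 0.085 ± 0.19. Without ethanol replicates 2 and 3 the median over the 6 fibrinolytic genes was -0.25.

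The spread between mice was larger with ethanol in 25 of 30 clotting genes (83.3%), against 59.3% of all genes, and the median ratio of SDs was 1.66 against 1.16. The share was 78.6% in acute phase genes (11 of 14), 76.9% in other clotting and fibrinolysis genes (10 of 13), 70% in liver transcription factors (7 of 10) and 50% in hepatocyte markers (5 of 10), and no difference between these lists was tested. In the fibrinolytic genes this held for 6 of 6, with a median ratio of 2.82, in the procoagulant genes for 12 of 16 and in the anticoagulant genes for 7 of 8. Plat is counted in the 25 and in the 6, but its ethanol values are near the floor, so its ratio of 1.87 is no measured spread. F5, F8, F12, Kng1 and Serpinc1 were the members with the larger SD in controls. In 19 of 30 members (63.3%) ethanol replicates 2 and 3 were both above replicates 1 and 5, against 29.5% of all genes. They were both below in 5 members (16.7%, against 30.2%), namely Kng1, Vwf, Tfpi, Plau and Plat, where Plat rests on values near the floor. This ordering was singled out after the values were seen, and it was not limited to clotting genes. Replicates 2 and 3 were above replicates 1 and 5 in 5 of 10 hepatocyte markers (Ahsg, Cps1, Ass1, Cyp3a11 and Cyp2e1). They were below in 2 of the 10 (Apoa1 and Apob). They were above in 7 and below in 3 of 14 acute phase genes, and above in 5 and below in 0 of 10 liver transcription factors. They were below in 8 and above in 2 of 13 endothelial markers. In Kupffer cell markers they were below in 8 and above in 0 of 12, and in monocyte markers below in 6 and above in 0 of 7. The 2 mice were the ones in slide column 1, so mouse and column cannot be told apart. With slide column as a covariate 6 of 30 members were higher with ethanol, where 55.3% of all genes were. Column and group were partly confounded, since column 1 held only ethanol mice and column 4 only control replicates 1, 4 and 5. The column number entered as a linear term, so that fit cannot fully tell ethanol and column apart.

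**Figure D4:**
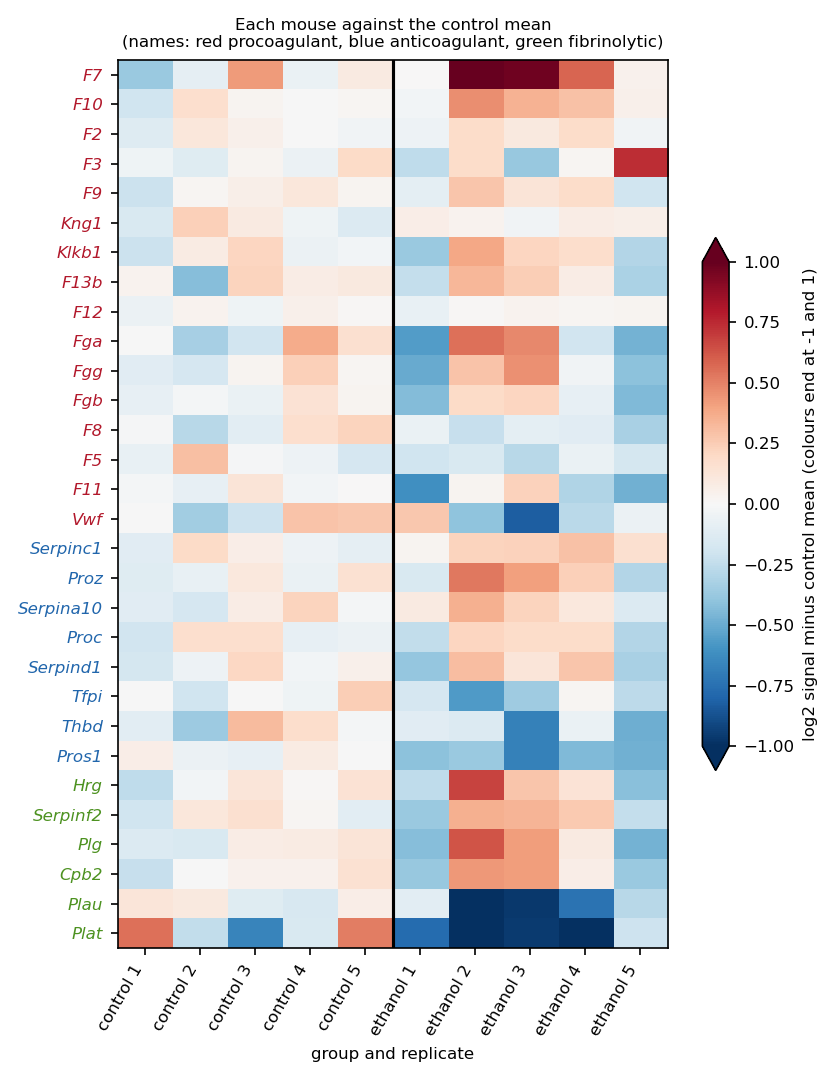
Log2 signal minus the control mean for each of the 30 clotting genes (rows, ordered by role and by difference) in each of the 10 mice (columns, controls left of the line), with red for higher and blue for lower and colours ending at -1 and 1. Ethanol replicates 2 and 3 are above ethanol replicates 1 and 5 in 19 of 30 genes, and Pros1 is blue in all 5 ethanol mice.

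Some clotting factors need vitamin K-dependent carboxylation, and factors V and VIII need a cargo receptor to leave the cell. All 5 genes of that list were higher with ethanol (median difference 0.19, smallest adjusted p 0.243), and 0 of 5 passed the threshold. Mcfd2, a subunit of the cargo receptor, was at 5.64, 5.76, 5.67, 5.81 and 5.66 in controls and at 6.01, 5.84, 5.91, 5.93 and 5.97 with ethanol. Every ethanol mouse was above every control, as in 1.98% of all genes, and the difference was 0.22 ± 0.066. It was 0.18 with slide as a fixed block and 0.12 under quantile normalization. Lman1, the other subunit, differed by 0.29 ± 0.092 and Vkorc1, the enzyme that recycles vitamin K, by 0.19 ± 0.078. Vkorc1 differed by 0.062 under quantile normalization. The remaining 2 genes, Ggcx (the carboxylase) and Vkorc1l1, differed by 0.13 ± 0.095 and 0.15 ± 0.14.

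Of 6 receptor genes for thrombin, protein C and urokinase, 3 were tested and all 3 were lower, with none past the threshold. F2r, the thrombin receptor, differed by -0.27 ± 0.16 and Procr, the endothelial protein C receptor, by -0.32 ± 0.18. F2r differed by -0.54 within slide 1 and by -0.034 within slide 3, and Procr by -0.45 and -0.083. Plaur, the urokinase receptor, differed by -0.11 ± 0.33, but by 0.17 with slide as a fixed block, -0.77 within slide 1 and 0.96 within slide 3. The 3 genes F2rl1, F2rl2 and F2rl3 were not well above background on enough arrays. Of 14 other clotting and fibrinolysis genes 13 were tested, 4 higher and 9 lower (median -0.021). F13a1, the catalytic subunit of the fibrin-crosslinking factor, which is made by macrophages and platelets, differed by -0.68 ± 0.26 (adjusted p 0.320). F13a1 differed by -1.60 within slide 1 and by -0.085 within slide 3. Markers of monocytes were lower in 7 of 7 (median -1.11), with summed signals of 13.1 to 20.4 in controls and 9.17 to 21.1 with ethanol. Of these 7, Gpnmb was well above background on only 3 ethanol arrays and was kept only through the controls. The filter therefore favoured its lower value. The part of these cells in F13a1 and Plau was not tested. Stellate cell markers were lower in 9 of 10 (median -0.35), with summed signals of 81.0 to 108 in controls and 53.7 to 81.5 with ethanol.

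Liver transcription factors that act on clotting genes were 7 higher and 3 lower of 10 (median 0.076), with a difference of 0.026 ± 0.16 in Hnf4a. Cebpa differed by 0.28 ± 0.082 (adjusted p 0.243) and Nr1i2 by 0.36 ± 0.14 (adjusted p 0.327). The acute phase proteins that the liver makes alongside fibrinogen were 3 higher and 11 lower of 14 (median -0.16), where fibrinogen's own chains differed by -0.037 to -0.11. Steap4 differed by -0.68 ± 0.18, Orm3 by -0.83 ± 0.23 and Lcn2 by -0.90 ± 0.26, with adjusted p of 0.215, 0.220 and 0.237. Within slide 3 the 3 differences were -0.23, -1.14 and -0.54, and within slide 1 they were -0.90, -0.39 and -1.36.

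**Figure D5:**
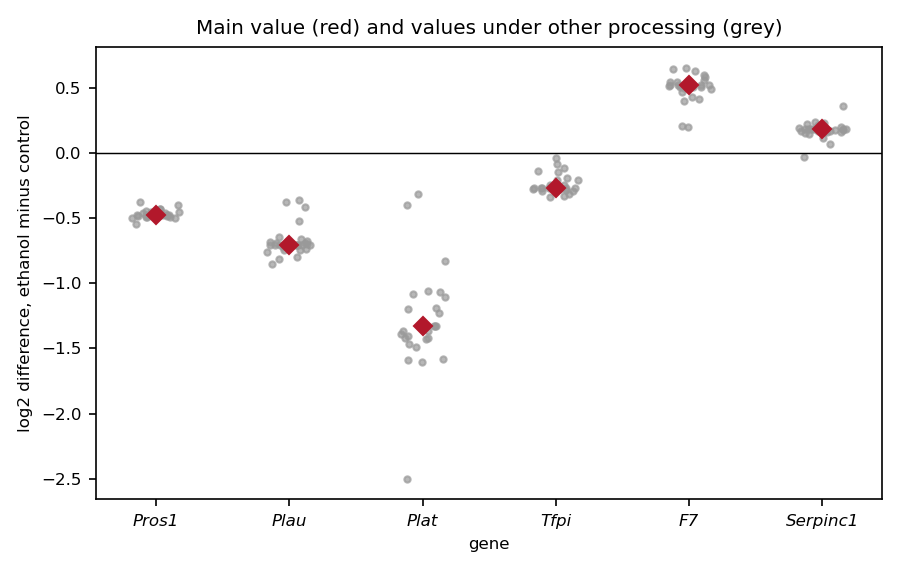
Log2 difference, ethanol minus control, for the 6 clotting genes with an unadjusted p under 0.05, with a red diamond for the reported value and grey points for its alternatives (other scaling, background, filters, blocks and left-out arrays). Pros1, Plau, Plat and Tfpi stay below 0 and F7 above 0 throughout, and Serpinc1 has a value of -0.031 within slide 3. Plat was kept only through the controls and rests on values near the floor.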

How the data were processed

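The authors deposited 1 scanner table of spot intensities per array, made with Agilent Feature Extraction 10.7.3.1 per the file headers (array build mm9), and 1 table of log2 values. Per the file headers the processed intensity is background-subtracted. Between arrays, differences in the deposited log2 table matched those of the scaled intensity (r of 1.00 over 12307 probes), while the value on which its probes were centred is unknown and cancels in differences. Its column medians ran from -0.12 to 0.080.

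Control and outlier spots were left out. Processed intensity was divided by each array's 75th percentile, floored at 4 signal units (-6.37 on the scale used), and log2 was taken. Spots of a probe were averaged. A probe was kept where 4 or more of a group's 5 arrays had it well above background (31110 of 56605). Names came from RefSeq (GRCm38.p6) by accession: 32989 probes had 1 symbol and 23616 were unnamed here. Of several kept probes the one with the highest mean signal stood for a gene, leaving 15086 genes. Groups were compared with limma 3.58.1 (R 4.3.3, lmFit and eBayes, two-sided) with Benjamini-Hochberg adjustment over all genes and a threshold of 0.05. On simulated data, 79% of 200 genes changed by 1 on the log2 scale and 94% of those changed by 2 were recovered for this comparison over 15086 genes. Correlations used 100000 permutations (scipy 1.17.1). Members and gene lists were chosen with earlier results of these data known. All 30 members are reported. Values per mouse are given for those with an unadjusted p under 0.05 or without overlap, and for F2, F3, the fibrinogen chains, Vwf, Serpinc1 and Plg. From the other lists the genes with an unadjusted p under 0.05, or the 2 with the smallest p, are named, except where not reported here. The genes Kng2, Hnf4a, Ggcx, Vkorc1l1, Plaur, Pecam1, Cdh5 and the hepatocyte markers were named besides these, after their values were seen. Promoters cover 250 bases before RefSeq starts on GRCm38.p6 and were matched by symbol for 22 of 30 members. Alternatives changed the scaling, background correction, floor, filter, probe rule, variance model, slide and column terms, replicate block and left-out arrays.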

Additional observations from a re-analysis of the deposited data

Results flagged for a closer look

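Of 60 groups of 5 mice (30 genes in each of 2 groups), 3 held a mouse far from the others by Dixon's ratio of gap to range, with a critical value of 0.71. F9 in control replicate 1 was at 4.40, below the other controls, with a ratio of 0.731. F12 in ethanol replicate 1 was at 6.04, below the other ethanol mice, with a ratio of 0.773. F13b in control replicate 2 was at 3.00, below the other controls, with a ratio of 0.711. Chance gives such a mouse in about 1 in 20 groups, which is as many as were seen. The differences between groups in these genes were 0.058 (F9), 0.0031 (F12) and 0.020 (F13b).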

How the results depend on the processing

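Each value was recomputed under 28 alternatives. Of 839 recomputed member differences, 108 had the opposite sign to the reported one, 70 of them outside the runs that left out 1 mouse, and none of the 108 was over 0.34 in size. The sign held in every alternative for 9 members. The count of members past the threshold, 0 as reported, was 1 (Pros1) with trend and robust moderation, with array weights and with slide as a random block. Members without overlap, 1 as reported, were 3 under quantile normalization (F5, Plau and Pros1, against 2.82% of all genes). They were 2 with the mean of a gene's probes (Pros1 and Tfpi, against 2.98%). Without the arrays of slide column 1 they were 2 (F11 and Pros1, against 8.09%). When each mouse was left out they were 1 to 2 (3.35 to 6.67% of all genes), with 2 without ethanol replicate 1 or 5. Members higher with ethanol, 17 as reported, were 7 under quantile normalization, 6 with slide column as a covariate, 7 without that column's arrays, and 10 to 20 without 1 mouse. The fibrinolytic median was -0.25 without those arrays. Of all genes, 3 passed as reported, 7 under normexp, 5 with a floor of 16, 6 with no filter, 9 with trend and robust moderation, 15 with array weights, 12 with slide as a random block (correlation -0.13), and 0 to 7 without 1 mouse (0 without control replicate 4 or 5 or ethanol replicate 1, 1 without ethanol replicate 2, 7 without ethanol replicate 4). None (0) passed with slide as a fixed block, within slide 1, within slide 3, without slide 2 or with slide column as a covariate. The shared replicate numbers did not pair the mice: same-numbered mice had correlations of 0.32, 0.15, 0.31, 0.064 and -0.11, and 3 of 10 arrays correlated best with their own number. With the replicate number as a block 0 members and 0 genes passed. Within slide 1 and within slide 3 a lone array was assumed to vary like the others. The planned search of protein sequences was not run, and 8 members had no promoter to search. The causes of these changes were not tested. The 5 arrays a group and, for Plat, signal near background limit the precision. Under quantile normalization the differences of opposite sign were -0.020 (F2), -0.027 (F9), -0.12 (F12), -0.039 (F13b), -0.054 (Klkb1), -0.037 (Kng1), -0.12 (Proc), -0.046 (Serpinf2), -0.087 (Cpb2) and -0.023 (Hrg). Within slide 3 they were -0.068 (F2), 0.094 (F8), -0.038 (F12), -0.10 (Klkb1), -0.21 (Kng1), 0.34 (Fga), 0.13 (Fgg), 0.091 (Vwf), -0.20 (Proc), -0.031 (Serpinc1), 0.011 (Thbd) and -0.094 (Serpinf2). Within slide 1 they were -0.047 (F3), 0.043 (F5), -0.0099 (F12), -0.0098 (F13b), 0.26 (Serpind1), -0.019 (Plg) and -0.031 (Cpb2). With slide column as a covariate they were -0.010 (F2), -0.023 (F9), -0.023 (F12), -0.000679 (F13b), -0.21 (Klkb1), -0.041 (Kng1), 0.16 (Vwf), -0.18 (Proc), -0.0089 (Proz), -0.18 (Plg), -0.16 (Serpinf2), -0.20 (Cpb2) and -0.14 (Hrg). Without the 2 arrays of slide column 1 they were -0.038 (F9), -0.010 (F12), -0.16 (F13b), -0.16 (Klkb1), -0.12 (Proc), -0.067 (Proz), -0.27 (Plg), -0.11 (Serpinf2), -0.23 (Cpb2) and -0.18 (Hrg). Under normexp they were -0.039 (F12), 0.0066 (Fga) and 0.0057 (Fgg). In the authors' log2 table they were -0.011 (F12) and -0.0063 (Proc). With array weights they were -0.0036 (F12), -0.049 (F13b), 0.015 (Serpind1), -0.033 (Plg) and -0.030 (Cpb2). With slide as a fixed block they were -0.025 (F12), -0.037 (Kng1) and 0.11 (Serpind1). Without slide 2 they were -0.029 (F12), -0.000673 (the log2 difference of Proc), 0.0082 (the log2 difference of Serpind1) and -0.029 (Cpb2). With slide as a random block they were -0.048 (F13b). Leaving out each mouse in turn, they ran from -0.11 to 0.17 (F3), -0.012 to 0.023 (F12), -0.087 to 0.10 (F13b), -0.070 to 0.12 (Klkb1), -0.18 to 0.093 (Fga), -0.17 to 0.073 (Fgg), -0.044 to 0.084 (Proc), -0.079 to 0.094 (Serpind1), -0.099 to 0.18 (Plg), -0.0016 to 0.18 (Serpinf2), -0.068 to 0.14 (Cpb2) and -0.063 to 0.21 (Hrg).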
